A study of Homo sapiens with 4 samples.

Results

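The homeobox, SOX, forkhead and T-box genes described here, together with the sine oculis (such as SIX3), PAX, LHX, GATA and RUNX families, are the DNA-binding factors best known for assigning position and cell type in the embryo. They were taken by name from a table of gene counts: symbols that begin with HOXA, HOXB, HOXC, HOXD, SOX, FOX, TBX, GATA, PAX, LHX, RUNX or the 3 letters of the sine oculis family and continue with a number, or with a letter and a number, and that had 20 or more counts summed over the 4 libraries. Antisense genes, FOXM1, SIX6OS1 and the GATAD and FOXRED genes were left out. The rule gave 69 genes of 19653 in the table. These were 27 FOX, 9 SOX, 8 HOXB, 5 sine oculis genes, 4 LHX, 3 GATA, 3 PAX, 3 RUNX, 2 HOXA and 1 HOXD gene, and 4 whose symbol begins with TBX. TBXA2R, the thromboxane A2 receptor, is among the last only by its letters and is not a T-box factor. FOXO3B is a processed pseudogene related to FOXO3, and the other 68 genes are protein-coding in GENCODE release 29. The smallest sums inside the rule were 20 counts for FOXH1, 21 for FOXE1 and 22 for HOXD12, and the largest outside it were 19 for FOXO6, 17 for FOXD4L4 and 16 for LHX1-DT.

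The RNA came from hTERT-RPE1, an established line of human retinal pigment epithelium kept dividing by telomerase. The 2 libraries labelled sg53BP1, genotype 53BP1 knockout, came from a line edited with CRISPR-Cas9, in which a lentiviral vector delivered the guide RNA for 53BP1. The 2 libraries labelled sgControl, genotype WT, came from cells whose vector held Cas9 without a guide, so that the controls carry Cas9 too. The labels give no treatment for either group. Whether the edited line was 1 clone or a pool, and whether the libraries of a group were separate cultures, is not stated; the p-values below rest on the spread between samples that may be technical repeats. The labels spell the line hTRET-RPE1.

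HOX genes lie in clusters and are used in order along the body axis, from the hindbrain backwards, while the retina and its pigment epithelium come from the forebrain, in front of the HOX territory. The forebrain and eye field are marked instead by PAX6, SIX3, SIX6 and LHX2. SOX proteins bend DNA through a high-mobility-group domain, forkhead proteins bind through a winged helix, and T-box, GATA and RUNX proteins have domains of their own, so that the families recognise different short DNA motifs.

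Total counts were between 17883332 and 18164086 in the libraries labelled sg53BP1 and between 16654411 and 16830331 in those labelled sgControl. Levels are given in CPM, counts scaled to the size of each library. TP53BP1, the targeted gene, had 1743 and 1516 counts in the libraries labelled sg53BP1 and 431 and 594 in those labelled sgControl. It was thus higher where the knockout is labelled, at a log2 fold change of 1.56 ± 0.18 (SE; adjusted p = 0.00224 in edgeR; 0.144 and 0.106 with sg53BP1 replicate 1 or 2 left out). An edited gene may still be transcribed, but the labels could not be checked by this gene, so each direction below refers to the libraries as labelled and would turn if the labels were exchanged. The sgControl libraries stood further apart than the sg53BP1 libraries: 1.08% of tested genes were more than 2-fold apart within the sg53BP1 pair and 6.93% within the sgControl pair. Of 14 pigment epithelium markers 11 had a row in the table and 2 were above 5 CPM in every library, MITF at 37.6 and 31.4 CPM in libraries labelled sg53BP1 and 29.2 and 30.4 CPM in those labelled sgControl, and OTX2 at 12.2 and 11.4 CPM against 6.87 and 9.28 CPM. RLBP1, TYR, TYRP1, DCT and SLC16A8, genes of the visual cycle, pigment and transport in mature pigment epithelium, stayed under 1 CPM in all 4 libraries. LRAT, SERPINF1, PMEL and BEST1 stayed under 5 CPM but reached 1 CPM in at least 1 library. LRAT had 2.38 and 1.83 CPM in libraries labelled sg53BP1 and 1.63 and 3.04 CPM in those labelled sgControl. SERPINF1 had 2.49 and 3.11 CPM against 1.69 and 2.44 CPM. PMEL had 0.940 and 1.33 CPM against 1.57 and 1.79 CPM, and BEST1 0.553 and 0.167 CPM against 1.51 and 0.298 CPM.

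FOXQ1 rose and FOXD1 and HOXB9 fell in the libraries labelled sg53BP1, and no other gene among the 63 that passed the low-count filter had an adjusted p under 0.05. The background was 2.07% of 13140 tested genes called higher and 3.01% called lower, or 5.08% in either direction, and 3 calls among 63 genes, 4.76%, are near that share. An unadjusted p under 0.05 was found for 16 of the 63, against 19.3% of all tested genes. The median log2 fold change was −0.08, with 30 genes positive and 33 negative, beside −0.02 for all tested genes. The groups did not overlap for 16 genes that were higher and 23 that were lower where sg53BP1 is labelled, 61.9% of the 63. Over all tested genes this was so for 50.7% in either direction, 24.8% higher and 25.9% lower. The median absolute log2 fold change was 0.39, against 0.22 for all tested genes, and the median level was 9.35 CPM against 28.5 CPM, so that the counts behind these genes were smaller than usual. In bulk RNA, fewer cells with a transcript and less of it per cell cannot be told apart.

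**Figure D1:**
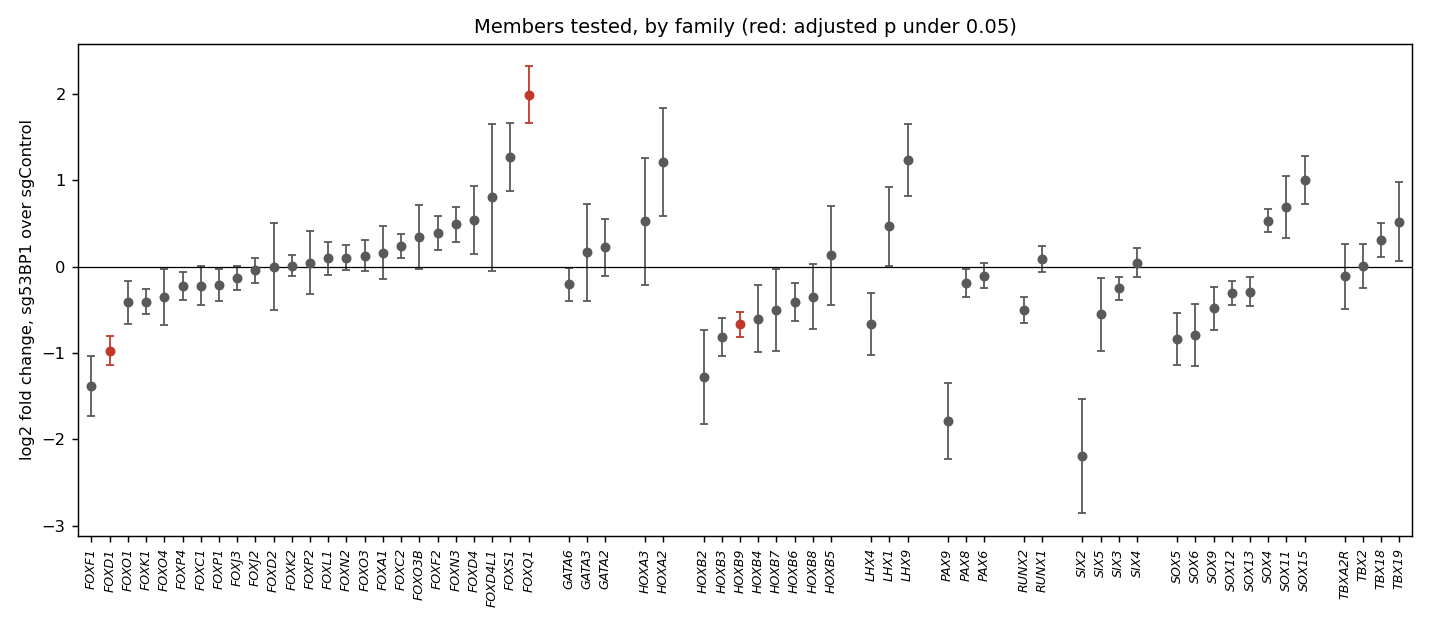
Log2 fold change, sg53BP1 over sgControl, of 62 of the genes tested, grouped by family and sorted within it, with bars of 1 standard error (back-calculated from the edgeR test statistic, 2 libraries in each group). FOXQ1, FOXD1 and HOXB9, in red, passed an adjusted p of 0.05, while SIX2 and PAX9 lie lower than FOXD1 but with wider bars.

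FOXQ1 (ENSG00000164379), a forkhead factor of epithelia known for promoting mesenchymal traits in carcinoma cells, had the largest rise. It had 174 and 196 counts, 9.62 and 10.9 CPM, in libraries labelled sg53BP1 and 31 and 55 counts, 1.87 and 3.27 CPM, in those labelled sgControl. Every library labelled sg53BP1 was above both labelled sgControl. The means were 10.3 ± 0.895 and 2.57 ± 0.994 CPM (SD, n = 2 each), 3.98-fold higher, with a log2 fold change of 1.99 ± 0.33 (SE; edgeR adjusted p = 0.0106). Without sg53BP1 replicate 1 or 2 the log2 fold change was 2.08 and 1.91 and the edgeR adjusted p was 0.283 and 0.358.

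FOXD1 (ENSG00000251493), a forkhead factor of the temporal retina and of kidney stroma, went the other way. It had 14.8 and 18.6 CPM in libraries labelled sg53BP1 and 33.6 and 32.0 CPM in those labelled sgControl, with no overlap and sgControl libraries close together. The means were 16.7 ± 2.68 and 32.8 ± 1.17 CPM (SD, n = 2 each), 1.96-fold lower, with a log2 fold change of −0.97 ± 0.17 (SE; edgeR adjusted p = 0.0128). With replicate numbers as blocks the adjusted p was 0.054, and it came to 0.361 when sg53BP1 replicate 1 was left out and 0.189 when replicate 2 was. The exons of FOXD1 overlap those of FOXD1-AS1 on the opposite strand, whose reads cannot be told apart where counting did not use strand.

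HOXB9 (ENSG00000170689), the most posterior of the 8 HOXB genes kept by the rule, had 21.2 CPM in each library labelled sg53BP1 and 32.8 and 34.5 CPM in those labelled sgControl. The means were 21.2 ± 0.0115 and 33.6 ± 1.15 CPM (SD, n = 2 each), 1.59-fold lower, with a log2 fold change of −0.67 ± 0.14 (SE; edgeR adjusted p = 0.0324). The libraries of each group lay close together, so the gap between groups exceeded the spread within them. The call was lost with limma-voom (adjusted p = 0.0614), with replicate numbers as blocks (0.0811) and without sg53BP1 replicate 1 or 2 (adjusted p = 0.465 and 0.505), while the log2 fold change stayed between −0.66 and −0.67 in these 4 fits.

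Because the sgControl libraries differed, each was also set alone against the pair labelled sg53BP1, with the spread then taken from that pair. Without sgControl replicate 1, 8 of these genes were called higher and 11 lower, where 11.8% and 12.7% of all tested genes were. Without sgControl replicate 2, 9 were called higher and 7 lower, where 8.77% and 9.65% of all were. FOXQ1, FOXS1, SOX15 and SOX4 were called higher and FOXD1, FOXF1, HOXB3, HOXB9 and PAX9 lower in both fits. These 4 and 5 of 64 genes compare with 4.36% and 5.1% of 13404 genes tested in both. FOXS1, SOX15, SOX4, FOXF1, HOXB3 and PAX9 did not pass with all 4 libraries.

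**Figure D2:**
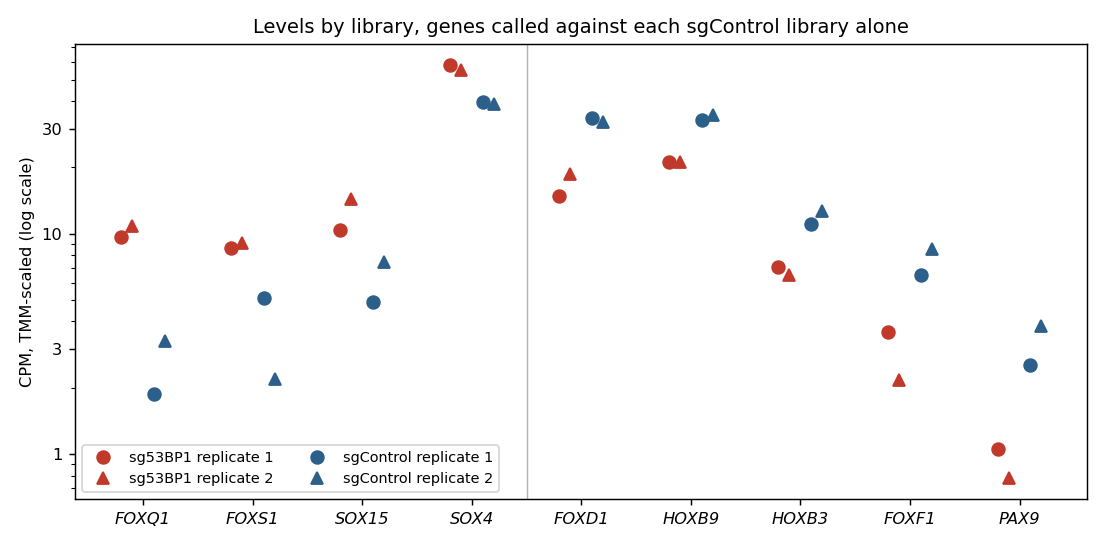
CPM on a log scale in each library for the 9 genes called in the same direction against each sgControl library alone, with sg53BP1 libraries in red on the left of each gene and sgControl libraries in blue on its right. FOXQ1 stands at 9.62 and 10.9 CPM above 1.87 and 3.27 CPM, and PAX9 at 1.05 and 0.778 CPM below 2.53 and 3.81 CPM. The groups do not overlap for any of the 9, which follows largely from how the genes were chosen.

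The stretches around the RefSeq transcription starts of FOXQ1, SOX4 and FOXD1 are shown because, of the 9 genes, these were the ones with a single start in the table of sequences used here. Each runs from 250 bases before the start to 50 after it, 5′ to 3′ on the strand of the gene, in build GRCh38.p14: chr6:1311848-1312147 on the plus strand for FOXQ1, chr6:21593501-21593800 on the plus strand for SOX4 and chr5:73448728-73449027 on the minus strand for FOXD1. Capitals mark the CCAAT box (CCAAT) and the GC box (GGGCGG) on either strand.
FOXQ1: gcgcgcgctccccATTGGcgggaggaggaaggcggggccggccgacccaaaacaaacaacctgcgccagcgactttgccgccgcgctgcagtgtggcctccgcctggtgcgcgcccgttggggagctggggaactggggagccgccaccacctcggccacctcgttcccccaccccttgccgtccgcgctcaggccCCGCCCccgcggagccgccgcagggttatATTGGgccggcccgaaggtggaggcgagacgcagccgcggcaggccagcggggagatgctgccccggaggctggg
SOX4: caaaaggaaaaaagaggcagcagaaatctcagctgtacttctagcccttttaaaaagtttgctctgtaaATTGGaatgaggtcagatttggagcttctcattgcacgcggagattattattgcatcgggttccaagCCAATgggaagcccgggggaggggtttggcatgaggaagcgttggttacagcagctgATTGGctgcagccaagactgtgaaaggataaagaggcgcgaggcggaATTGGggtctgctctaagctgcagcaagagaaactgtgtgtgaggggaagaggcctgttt
FOXD1: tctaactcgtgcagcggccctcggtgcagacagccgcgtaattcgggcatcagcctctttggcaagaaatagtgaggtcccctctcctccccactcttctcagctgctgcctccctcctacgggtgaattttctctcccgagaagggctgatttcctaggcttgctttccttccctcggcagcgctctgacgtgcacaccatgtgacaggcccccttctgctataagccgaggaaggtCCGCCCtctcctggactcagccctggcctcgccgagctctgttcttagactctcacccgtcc

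FOXQ1 held 2 CCAAT boxes and 1 GC box, SOX4 held 4 CCAAT boxes, and FOXD1 held 1 GC box. A CCAAT box was found in 34.6% and a GC box in 45.0% of 35116 windows of the same length in the RefSeq table. Other motifs searched on both strands had no match in the 3 windows. These were the TATA box, TATAAA, in 11.5% of all windows, a forkhead motif, TGTTTAC, in 3.42%, and a homeobox motif, TAATTA, in 4.84%. A SOX motif, ACAATG, occurs in 10.8% of all windows, the AP-1 motif, TGANTCA, in 7.71% and the E-box, CACGTG, in 7.26%. The windows differed in composition: FOXQ1 was 74.7% G and C with 35 CpG dinucleotides, FOXD1 59.7% with 16 and SOX4 49.3% with 8, and the median window had 58.7% and 14. Of the 69 genes 46 matched the table, in 84 windows with a median of 62.0% G and C and 21 CpG dinucleotides. Such matches describe letters and say nothing of binding.

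The HOXB genes, which pattern the hindbrain and trunk, were the HOX genes with most counts, and HOXB9 was the only one that fell with all 4 libraries. Among the 8, HOXB2 to HOXB9, the log2 fold change was negative for 7 with a median of −0.55, and for those 7 the groups did not overlap, beside 25.9% of all tested genes that were lower without overlap. Summed over the 8 the level was 46.3 and 50.4 CPM in libraries labelled sg53BP1 and 69.0 and 76.0 CPM in those labelled sgControl. HOXB9 alone made up the largest share of these sums. HOXB3 had 7.08 and 6.50 CPM in libraries labelled sg53BP1 and 11.1 and 12.7 CPM in those labelled sgControl, a log2 fold change of −0.81 ± 0.22 (SE; edgeR adjusted p = 0.0792). HOXB2, the most anterior of them and present in few counts, had 10 and 13 counts against 18 and 34, a log2 fold change of −1.28 ± 0.54 (SE; edgeR adjusted p = 0.242).

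HOXB6 had 9.46 and 12.9 CPM in libraries labelled sg53BP1 and 16.1 and 13.6 CPM in those labelled sgControl, so that the nearest libraries of the groups almost met. HOXB4 had 1.94 and 2.39 CPM against 2.65 and 3.93 CPM, HOXB7 had 1.11 and 1.00 CPM against 1.21 and 1.79 CPM, and HOXB8 had 1.94 and 2.72 CPM against 2.89 and 3.04 CPM. HOXB5 was the exception, at 3.10 and 3.06 CPM in libraries labelled sg53BP1 and 1.21 and 4.40 CPM in those labelled sgControl, where the sgControl libraries stood on either side. With sgControl replicate 1 left out its log2 fold change was −0.49, and with replicate 2 left out it was 1.36 (edgeR adjusted p = 0.321 and 0.0221). Per kilobase of the longest coding transcript, HOXB9 stood at 8.20 CPM where sg53BP1 is labelled and 13.0 CPM where sgControl is labelled, HOXB6 at 5.70 and 7.58, and HOXB3 at 1.61 and 2.83. Exons of HOXB3 overlap those of HOXB4 and HOXB6 in GENCODE release 29, and HOXB2, HOXB3, HOXB5 and HOXB6 overlap antisense transcripts of the cluster. Reads in these overlaps may come from either gene, and the strand setting used to count them was not given. The changes of these genes may therefore not be independent.

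**Figure D3:**
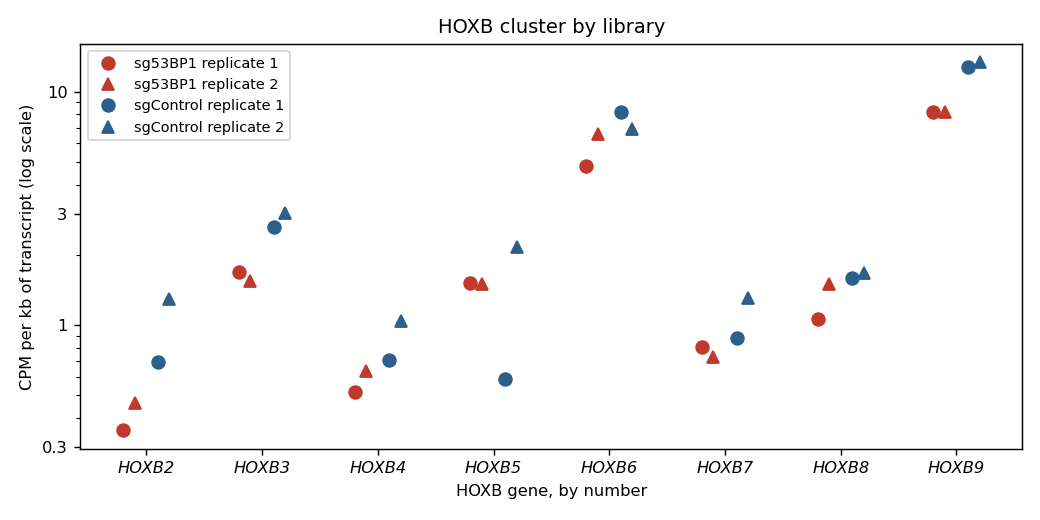
CPM per kilobase of the longest coding transcript, on a log scale, in each library for the HOXB genes in order of their number, with sg53BP1 libraries in red on the left of each gene and sgControl libraries in blue on its right. Levels are highest at HOXB9 and HOXB6; for every gene except HOXB5 both red points lie under both blue ones.

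Other HOX genes were few. HOXA3, a gene of the pharyngeal arches and hindbrain, had 8.02 and 10.9 CPM in libraries labelled sg53BP1 and 10.5 and 2.68 CPM in those labelled sgControl, so that sgControl replicate 2 alone was low. Its log2 fold change was 0.53 ± 0.73 (SE; edgeR adjusted p = 0.783), 1.85 without sgControl replicate 1 and −0.14 without sgControl replicate 2 (edgeR adjusted p = 1.85e-08 and 0.759). HOXA2, its neighbour, had 17 and 16 counts against 9 and 4. HOXD12, a limb gene, had 5 and 4 counts against 5 and 8 and was not tested.

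Of the forebrain and eye-field genes, PAX6 and SIX3 were well counted in each library and LHX2 barely. SIX6 had no row in the table of gene counts. PAX6, the paired-box factor needed for eye formation, had 38.6 and 32.3 CPM in libraries labelled sg53BP1 and 37.4 and 38.9 CPM in those labelled sgControl, with overlap and a log2 fold change of −0.11 ± 0.15 (SE; edgeR adjusted p = 0.762). SIX3, a forebrain and eye-field factor and the sine oculis gene with the highest level per kilobase, had 33.7 and 35.7 CPM against 41.3 and 41.1 CPM, a log2 fold change of −0.25 ± 0.13 (SE; edgeR adjusted p = 0.357). The groups did not overlap for SIX3, but the difference was small. LHX2, another eye-field factor, had only 11 and 8 counts in libraries labelled sg53BP1 and 5 and 0 in those labelled sgControl and did not pass the filter on low counts. With sgControl replicate 1 left out it passed the filter and was called higher (edgeR adjusted p = 0.0423), against a single library at 0.

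SIX4, which acts with EYA proteins in sense organs and muscle, overlapped between groups. It had 45.1 and 40.7 CPM in libraries labelled sg53BP1 and 47.4 and 35.8 CPM in those labelled sgControl. SIX2, a factor of kidney progenitors, was at 0.443 and 0.278 CPM in libraries labelled sg53BP1 and 0.904 and 2.44 CPM in those labelled sgControl. That is 8 and 5 counts against 15 and 41, the largest negative log2 fold change among the 63 genes tested with all 4 libraries, −2.19 ± 0.66 (SE), and it did not pass (edgeR adjusted p = 0.107). Most of its sgControl counts came from replicate 2. SIX5 had 27 and 54 counts against 54 and 56.

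PAX9, a factor of pharyngeal pouches and teeth, had 19 and 14 counts, 1.05 and 0.778 CPM, in libraries labelled sg53BP1 and 42 and 64 counts, 2.53 and 3.81 CPM, in those labelled sgControl. The groups did not overlap, and the log2 fold change was −1.79 ± 0.45 (SE; edgeR adjusted p = 0.0575). Exons of PAX9 overlap SLC25A21 on the opposite strand. PAX8, a factor of thyroid and kidney, overlapped between groups at 21.2 and 22.4 CPM against 22.3 and 27.5 CPM, and its exons overlap PAX8-AS1. Of the LHX genes, LHX9 had 52 and 63 counts in libraries labelled sg53BP1 and 27 and 18 in those labelled sgControl, a log2 fold change of 1.24 ± 0.41 (SE; edgeR adjusted p = 0.143). LHX4, a pituitary factor, had 3.21 and 2.11 CPM against 4.04 and 4.40 CPM, and LHX1 had 1.60 and 1.39 CPM against 1.14 and 1.01 CPM. LHX9 and LHX4 thus stood on opposite sides without overlap, and neither passed.

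SOX9, the chondrocyte and progenitor factor, was the most abundant of all 69 genes, and its libraries were uneven. It had 151 and 148 CPM in libraries labelled sg53BP1 and 157 and 262 CPM in those labelled sgControl, where replicate 2 stood alone. The log2 fold change was −0.48 ± 0.25 (SE; edgeR adjusted p = 0.38). It was −0.77 with sgControl replicate 1 left out and −0.06 with replicate 2 left out (edgeR adjusted p = 1.22e-08 and 0.837). SOX5 and SOX6, which work beside SOX9 in cartilage, were also lower where sg53BP1 is labelled, without overlap and without passing. SOX5 had 68 and 63 counts against 92 and 125, and SOX6 had 2.21 and 2.61 CPM against 3.49 and 4.88 CPM.

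The SoxC genes SOX4, SOX11 and SOX12, factors of progenitors and neurons, did not stand on the same side. SOX4 had 58.5 and 55.4 CPM in libraries labelled sg53BP1 and 39.8 and 38.9 CPM in those labelled sgControl. The log2 fold change was 0.53 ± 0.13 (SE; edgeR adjusted p = 0.0562), just outside the threshold, and the DESeq2 Wald test called it (adjusted p = 0.0143). SOX11 had 29.3 and 27.8 CPM in libraries labelled sg53BP1 and 23.7 and 11.5 CPM in those labelled sgControl. Its log2 fold change was 0.69 ± 0.36 (SE; edgeR adjusted p = 0.39), with sgControl replicate 2 about 2-fold under replicate 1. SOX12 was lower instead, at 42.0 and 45.7 CPM against 50.6 and 57.8 CPM. The differences among them were not tested.

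SOX15, a single-copy SoxG gene known from muscle progenitors and placenta, had 10.4 and 14.3 CPM in libraries labelled sg53BP1 and 4.88 and 7.44 CPM in those labelled sgControl. It was 2.01-fold higher without overlap, with a log2 fold change of 1.00 ± 0.28 (SE; edgeR adjusted p = 0.0863), and its exons overlap MPDU1 on the opposite strand. SOX13 had 15.2 and 17.2 CPM against 19.6 and 19.9 CPM. SOX2, the pluripotency and neural factor, had 7 and 6 counts against 1 and 10 and was not tested.

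Forkhead genes that follow each other on a chromosome, among the genes counted here, did not all stand on the same side. On chromosome 6 the order is FOXQ1, FOXF2 and FOXC1. FOXF2, a factor of gut and craniofacial mesenchyme, had 15.1 and 16.9 CPM in libraries labelled sg53BP1 and 10.8 and 13.7 CPM in those labelled sgControl, without overlap. FOXC1, a factor of the anterior eye segment, had 9.90 and 8.11 CPM against 9.58 and 11.4 CPM, with overlap. On chromosome 16 the order is FOXF1, FOXC2 and FOXL1. FOXF1, the mesenchymal relative of FOXF2, had 3.60 and 2.17 CPM in libraries labelled sg53BP1 and 6.51 and 8.51 CPM in those labelled sgControl. It was 2.60-fold lower with a log2 fold change of −1.38 ± 0.34 (SE; edgeR adjusted p = 0.0574), and it passed with the DESeq2 Wald test (adjusted p = 0.0259). FOXC2, a factor of lymphatic vessels and mesenchyme, had 38.9 and 37.3 CPM against 30.8 and 33.9 CPM, and FOXL1 had 12.5 and 13.9 CPM against 12.3 and 12.4 CPM. FOXF1 and FOXF2 thus stood on opposite sides, a difference that was not tested. FOXS1, a forkhead gene of neural crest and perivascular cells, had 155 and 164 counts in libraries labelled sg53BP1 and 85 and 37 in those labelled sgControl, a log2 fold change of 1.27 ± 0.39 (SE; edgeR adjusted p = 0.123).

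FOXK2 and FOXO3 were the most abundant forkhead genes by mean CPM. FOXK2, a regulator of metabolism and autophagy genes, had 81.6 and 81.2 CPM in libraries labelled sg53BP1 and 79.2 and 82.0 CPM in those labelled sgControl, a log2 fold change of 0.01 ± 0.12 (SE; edgeR adjusted p = 0.973). FOXK1, its paralogue, had 50.3 and 43.2 CPM against 63.1 and 60.7 CPM, without overlap. FOXO3, an effector of insulin and stress signalling, had 88.5 and 80.4 CPM against 63.6 and 90.9 CPM, where the sgControl libraries enclosed those labelled sg53BP1. FOXO1 had 6.31 and 6.78 CPM against 7.59 and 9.82 CPM, and FOXO4 had 61 and 54 counts against 62 and 74. FOXJ3 lay between 63.1 and 74.9 CPM where sg53BP1 is labelled and between 73.3 and 77.6 CPM where sgControl is labelled, and FOXJ2 between 46.2 and 50.7 CPM and between 46.2 and 53.5 CPM.

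FOXN2, FOXP1, FOXP2, FOXP4, FOXA1 and FOXD2 overlapped between groups. FOXN3, a repressor with a role in cell-cycle checkpoints, had 25.6 and 21.3 CPM in libraries labelled sg53BP1 and 13.7 and 19.6 CPM in those labelled sgControl. FOXD4 had 48 and 42 counts against 31 and 26 and FOXD4L1 had 8 and 26 against 3 and 15. FOXD4 and the FOXD4L genes are near-identical copies, as are FOXO3 and FOXO3B over the pseudogene, so their counts are uncertain. FOXO3B had 55 and 48 counts against 42 and 33. FOXE1, a thyroid factor, had 4 and 0 counts in libraries labelled sg53BP1 and 6 and 11 in those labelled sgControl, and FOXH1, a partner of SMAD proteins, had 1 and 3 against 4 and 12. Both were too low to be tested.

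RUNX1, best known from blood formation, was the second most abundant of the 69 genes by mean CPM and overlapped between groups, at 128 and 121 CPM in libraries labelled sg53BP1 and 102 and 132 CPM in those labelled sgControl. RUNX2, the osteoblast factor, had 29.3 and 29.7 CPM against 38.1 and 45.5 CPM, without overlap, with a log2 fold change of −0.50 ± 0.15 (SE; edgeR adjusted p = 0.0961). RUNX1T1, a corepressor known from a leukaemia fusion with RUNX1 and itself no RUNX factor, had 1 and 1 counts in libraries labelled sg53BP1 and 17 and 5 in those labelled sgControl and was not tested. Without sgControl replicate 2 it passed the filter and was called lower (edgeR adjusted p = 0.00474).

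GATA6, an endoderm and mesoderm factor, had 15.9 and 13.6 CPM in libraries labelled sg53BP1 and 18.4 and 15.5 CPM in those labelled sgControl, and GATA2 had 6.36 and 5.28 CPM against 6.21 and 3.75 CPM. GATA3, a factor of T cells and of several epithelia, had 12.2 and 14.2 CPM in libraries labelled sg53BP1 and 6.09 and 17.4 CPM in those labelled sgControl, on either side of them. Its log2 fold change was 0.17 ± 0.56 (SE; edgeR adjusted p = 0.918). TBX18, a T-box factor of mesenchyme, had 16.9 and 14.1 CPM against 11.6 and 13.4 CPM, without overlap, with a log2 fold change of 0.31 ± 0.19 (SE; edgeR adjusted p = 0.44). TBX2 had 6.36 and 6.89 CPM against 6.09 and 7.08 CPM, and TBX19 had 25 and 34 counts against 20 and 18. TBXA2R, the receptor taken by its letters, had 2.38 and 3.33 CPM against 3.55 and 2.62 CPM.

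The libraries labelled sgControl were more than 2-fold apart, with at least 1 CPM in either, for 6 of the 63 tested genes, HOXA3, GATA3, HOXB5, SIX2, FOXS1 and SOX11, where 6.93% of all tested genes were. HOXA3, FOXS1 and SOX11 were lower in sgControl replicate 2 and GATA3, HOXB5 and SIX2 higher. FOXD4L1 alone was that far apart within the sg53BP1 pair. The median absolute log2 gap was 0.18 within the sg53BP1 pair and 0.34 within the sgControl pair, against 0.15 and 0.23 over all tested genes. Of the 6 genes with sgControl libraries that far apart, GATA3, HOXB5 and HOXA3 changed the sign of their log2 fold change with the sgControl library left out. For GATA3 it was −0.37 without replicate 1 and 1.13 without replicate 2, and for HOXA3 it was 1.85 and −0.14.

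**Figure D4:**
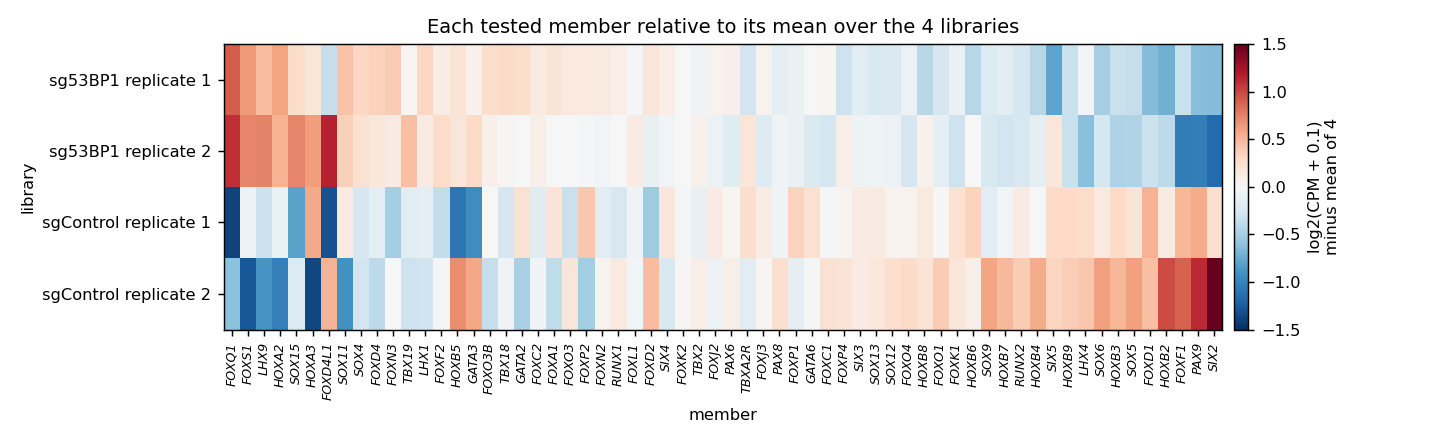
For 62 of the tested genes, the level in each library as log2(CPM + 0.1) minus its mean over the 4 libraries, in red where higher and blue where lower, ordered by the mean of the sg53BP1 libraries. FOXQ1 at the left and SIX2 at the right differ between groups, while HOXA3, HOXB5 and GATA3 show opposite colours in the 2 sgControl libraries.

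Of the 69 genes, 5 had an adjusted p under 0.05 in the authors' deposited table, where 6.17% of 14048 genes with an adjusted p did. These were FOXQ1, FOXD1, HOXB9, FOXF1 and SOX4. The log2 value there, in the authors' deposited table, runs as sgControl over sg53BP1 and was −2.02 for FOXQ1, 0.95 for FOXD1, 0.65 for HOXB9, 1.36 for FOXF1 and −0.55 for SOX4. That is the direction in which the sides match those of the counts. The heading of that log2 column names no direction and its values belong to the same libraries, so the shared sides do not check the labels.

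Proteins that work with these factors were counted beside them. HOX proteins bind DNA with the TALE homeodomain proteins PBX, MEIS and PKNOX, sine oculis proteins with EYA and DACH, GATA with ZFPM, RUNX with CBFB, LHX with LDB and LMO, and several families recruit TLE corepressors. Of 34 listed cofactors 26 were tested, 1 rose and 1 fell, beside 2.07% and 3.01% of all tested genes, with a median log2 fold change of −0.02. SSBP4, a single-stranded DNA-binding protein of LDB complexes, rose to 1009 and 1024 counts in libraries labelled sg53BP1, against 498 and 588 in those labelled sgControl, a log2 fold change of 0.79 (edgeR adjusted p = 0.015). With replicate numbers as blocks the adjusted p of SSBP4 was 0.0518, and with sg53BP1 replicate 1 or 2 left out it was 0.314 and 0.354. MEIS3 fell to 1.16 and 0.667 CPM in libraries labelled sg53BP1, against 3.86 and 5.89 CPM in those labelled sgControl, a log2 fold change of −2.41 (edgeR adjusted p = 0.018). The call of MEIS3 was lost with limma-voom (adjusted p = 0.0549), with the blocks (0.0814) and with sg53BP1 replicate 1 or 2 left out (0.276 and 0.436). PBX3, chosen after its values were seen, had 42.1 and 40.3 CPM against 69.4 and 56.8 CPM, without overlap and without passing (edgeR adjusted p = 0.0522). CBFB, the partner of RUNX proteins, was at 105 and 104 CPM against 107 and 85.1 CPM.

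Of 20 listed FOXO targets 18 were tested and 2 fell, beside 3.01% of all tested genes. The median log2 fold change of the 18 was −0.38, beside −0.02 for all tested genes. The 19 targets with a row summed to 1020 CPM in each library labelled sg53BP1. In sgControl replicates 1 and 2 the sums were 1084 and 1813 CPM, so replicate 2 alone stood well above the rest. BCL2L11, a pro-apoptotic BH3-only protein, fell to 9.79 and 8.94 CPM in libraries labelled sg53BP1, against 15.5 and 20.5 CPM in those labelled sgControl, a log2 fold change of −0.94 (edgeR adjusted p = 0.0383). CITED2, a coregulator that binds CBP and p300, fell to 256 and 279 CPM, against 409.5 and 582.4 CPM in those labelled sgControl, a log2 fold change of −0.89 (edgeR adjusted p = 0.0298). Both calls were lost in other fits: the adjusted p of BCL2L11 and CITED2 was 0.0845 and 0.0628 with limma-voom and 0.103 and 0.0518 with the blocks. Leaving out sg53BP1 replicate 1 gave 0.445 and 0.492, and leaving out replicate 2 gave 0.574 and 0.437. For others the libraries labelled sgControl stood far apart. TXNIP had 45.7 and 37.7 CPM in libraries labelled sg53BP1 and 39.5 and 191 CPM in those labelled sgControl, and FBXO32, a ubiquitin ligase of muscle atrophy, had 157.5 and 157.4 CPM against 87.7 and 345.8 CPM.

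Markers of other cell types were summed beside these genes. All 8 fibroblast markers had a row. They summed to 222 and 232 CPM in libraries labelled sg53BP1 and 397.5 and 350.3 CPM in those labelled sgControl. Of the 6 tested, 2 fell, THY1 and PDGFRA, beside 3.01% of all tested genes called lower. THY1 had 104 and 112 CPM against 190 and 200 CPM. FAP, which did not pass, had 70.2 and 71.3 CPM against 150 and 99.5 CPM. PDGFRB was also lower without passing. COL1A1 and TWIST1 had positive log2 fold changes, 0.16 and 0.17, and did not pass. LUM stayed under 1 CPM in all 4 libraries and DCN in all but sgControl replicate 1, at 1.33 CPM. The 5 endothelial markers summed to 4.15 and 2.89 CPM against 6.63 and 16.4 CPM, with KDR alone at 13.9 CPM in sgControl replicate 2, and the 4 haematopoietic markers to 1.38 and 1.22 CPM against 0.904 and 2.32 CPM. Among epithelial genes EPCAM and CDH1 were under 1 CPM in all 4 libraries while KRT8 and KRT18 were above 100 CPM. The part of other cell types in the differences of FOXF1, PAX9, SIX2 or FOXD1 was not tested.

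A further 34 rows met the naming rule with fewer than 20 counts. They include the HOX genes HOXB13 with 1 count, HOXC6 with 4 and HOXD13 with 3. The melanocyte and neural crest factors SOX10 and PAX3 had 1 count each, and GATA4 of heart and gut had 2. No HOXC gene reached the minimum. RUNX3, of T cells and sensory neurons, had 7 counts, and FOXP3, of regulatory T cells, had 6.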

How the data were processed

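RNA of 4 hTERT-RPE1 libraries, 2 labelled sg53BP1 and 2 labelled sgControl, was read in pairs of 150 bp, per the labels' protocols. The submitters' processing notes name build hg19 and the tools HISAT2 2.1.0, HTSeq 0.6.0 and Bowtie2 2.2.3; the annotation and strand setting were not given. The authors deposited 1 table of raw counts per gene, with their own comparison beside them: a mean signal, a log2 fold change, a score for the test, and p-values. The 397 repeated rows held identical counts and were removed, leaving 19653 Ensembl identifiers.

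The whole table was tested in R 4.3.3 with edgeR 4.0.16 (quasi-likelihood, filterByExpr, TMM, robust, no term besides the group), and p was adjusted by Benjamini-Hochberg over 13140 genes, with calls under 0.05. Each SE comes from the F statistic and the fold change. CPM use TMM-scaled totals, and gaps between replicates a prior count of 2. Transcript lengths and overlaps came from GENCODE release 29, on another build, without its coordinates. The fit was tested on simulated data. Alternatives were other size factors and filters, DESeq2 1.42.0, limma 3.58.1 (voom), a fold threshold, replicate numbers as blocks and omission of single libraries.

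Genes named by rule were TP53BP1, called genes, uncalled genes without overlap that differed at least 2-fold at 1 CPM or more, the most abundant gene of each family, and genes over 2-fold apart between sgControl libraries. Others were chosen after their values were seen, and the genes and lists as a whole with earlier results of these data known. Reads carry no molecular identifiers, so counting precision is an upper limit. Values of some genes are not reported here.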

Additional observations from a re-analysis of the deposited data

How the results depend on the processing

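The values below are calls higher and lower where sg53BP1 is labelled, in edgeR unless named, 272 and 395 over all genes and 1 and 2 among the developmental factors as reported. Without the low-count filter they were 611 and 937, and 5 and 8 among the factors. With the DESeq2 Wald test they were 422 and 569, and 2 and 3. With limma-voom they were 185 and 219, and 1 and 1. Restricted to changes of 2-fold or more they were 161 and 207, and 1 and 0. A fit with a replicate block gave 128 and 169, and 1 and 0. At an unadjusted edgeR p under 0.05 that fit had 6 factors higher and 9 lower, beside 6 and 10 in the fit as reported. Shared numbers did not pair the libraries (r = 0.03 between deviations of same-numbered libraries). Leaving out each library in turn gave 3 to 1621 genes higher and 1 to 1737 lower, and 0 to 9 factors higher and 0 to 11 lower. The 0 came without sg53BP1 replicate 1 or 2, where 10 and 4 factors had an unadjusted p under 0.05 and the lone library was assumed to vary like the sgControl pair. The median log2 fold change of the factors stayed between −0.12 and −0.03 in these fits. Among the tested genes named by rule, leaving out a library turned the sign of GATA3 (−0.37 to 1.13) and HOXA3 (−0.14 to 1.85). The sign also turned for HOXB5 (−0.49 to 1.36), PAX6 (−0.238 to 0.021), RUNX1 (−0.0596 to 0.30) and SIX4 (−0.13, −0.03 and up to 0.30). The cause was not tested. Factors not named by rule are left out of this list, among them FOXO3, whose sgControl libraries enclosed those labelled sg53BP1. With 2 libraries a group, differences in genes of few counts may go uncalled.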
